A study of Mus musculus with 6 samples.

Results

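The transcripts described here are those of 9 chemokine receptors that inflammatory and helper T cells use: Ccr2, Ccr4, Ccr6, Ccr8, Ccr9, Cxcr3, Cxcr4, Cxcr5 and Cxcr6. They were taken by gene name, and each name matched 1 of the 18828 genes in the deposited table. Spleen T cells, labelled WT, of the inbred mouse strain FVB were stimulated for 48 h with beads carrying antibodies to CD3 and CD28. At the same time they received either 50 µM urolithin A or DMSO, and stimulation and culture medium were common to both groups. Urolithin A is a metabolite that gut bacteria make from dietary ellagitannins, and DMSO is its solvent. There were 3 libraries per group, and their letters are a, b and c. The sources used here give neither the animals' age nor their number. Nor do they say that libraries came from separate animals or cultures, and p-values therefore measure only the spread between these libraries, which may be technical.

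Chemokine receptors are G protein-coupled receptors with a seven-helix fold that steer migrating leukocytes along gradients of secreted chemokines. They signal through Gi proteins to PI3 kinase gamma and the Rac activators that move the cytoskeleton, and are switched off by receptor kinases, beta-arrestins and RGS proteins. T cells exchange these receptors as they differentiate. As background, Cxcr3 marks type 1 helper and effector cells and Ccr4 and Ccr8 mark type 2 and regulatory cells. Ccr6 marks IL-17-producing cells, Cxcr5 follicular helper cells, and Cxcr6 tissue-resident and effector cells. Ccr9 directs cells to the small intestine, Ccr2 to inflamed tissue, and Cxcr4 to bone marrow and other sources of Cxcl12.

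In mm10 (GENCODE M21, matched by gene ID) 6 of the 9 genes lie on chromosome 9. Ccr9, Cxcr6 and Ccr2 share a cluster there, 435.1 kb from the start of Ccr9 to the end of Ccr2. Ccr4 occupies 114490316 to 114504916 on the minus strand of that chromosome, and Ccr8 occupies 120092114 to 120094906 on the plus strand. Cxcr6 extends from 123806475 to 123811760 on the plus strand, wholly inside Fyco1, which is read from the opposite strand. Cxcr5 lies at 44511787 to 44561877 on the minus strand. The remaining genes are Ccr6 on chromosome 17, Cxcr3 on X and Cxcr4 on chromosome 1. In 5 of the 9 the longest coding sequence sits in 1 exon. The table's own coordinates differ from these for all 9 genes, and the sources used here do not name their build.

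The promoters of Ccr4, Cxcr6 and Ccr8 are shown because Ccr4 and Cxcr6 were lower under urolithin A, while Ccr8, which belongs to the same helper class as Ccr4, was higher. Each is 300 bases of RefSeq sequence, from 250 before to 50 after the start, in GRCm38.p6 and on the gene's own strand. Of the 9 genes 8 had such an entry, and Cxcr5 had none. Ccr4 is at chr9:114496495-114496794 on the minus strand, Cxcr6 at chr9:123806227-123806526 on the plus strand, and Ccr8 at chr9:120091883-120092182 on the plus strand. The Ccr4 window lies inside the GENCODE span of the gene, which begins at 114504916 on the minus strand. It therefore belongs to a start within that span. Capitals mark every match, on either strand, to 5 short motifs of T cell transcription factors. These were GGAAA for NFAT, TGANTCA for AP-1, TCACAC for T-box factors, CTTTGA for TCF/LEF and AGATAA for factors of the GATA family.
Ccr4 promoter: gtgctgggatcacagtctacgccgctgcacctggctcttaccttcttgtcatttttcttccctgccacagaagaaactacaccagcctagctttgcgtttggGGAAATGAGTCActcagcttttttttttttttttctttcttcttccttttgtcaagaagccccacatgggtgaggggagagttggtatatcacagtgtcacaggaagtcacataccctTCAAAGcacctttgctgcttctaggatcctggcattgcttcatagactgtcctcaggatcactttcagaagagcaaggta
Cxcr6 promoter: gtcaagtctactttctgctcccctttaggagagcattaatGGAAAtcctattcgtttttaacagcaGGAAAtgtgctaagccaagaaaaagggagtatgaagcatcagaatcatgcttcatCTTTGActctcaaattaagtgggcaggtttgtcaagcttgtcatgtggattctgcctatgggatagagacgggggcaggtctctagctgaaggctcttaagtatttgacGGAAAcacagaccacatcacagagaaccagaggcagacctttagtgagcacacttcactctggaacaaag
Ccr8 promoter: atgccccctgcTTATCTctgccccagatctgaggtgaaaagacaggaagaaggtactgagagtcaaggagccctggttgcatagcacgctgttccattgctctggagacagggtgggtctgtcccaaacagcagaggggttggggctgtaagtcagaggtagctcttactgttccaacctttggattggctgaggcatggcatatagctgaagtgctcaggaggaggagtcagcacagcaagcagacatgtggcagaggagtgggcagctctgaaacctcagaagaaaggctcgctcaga
The Ccr4 promoter held 1 NFAT match directly followed by 1 AP-1 match, and 1 TCF/LEF match. That of Cxcr6 held 3 NFAT matches and 1 TCF/LEF match, and that of Ccr8 held 1 GATA match and none of the others. Among the promoters not shown, those of Ccr2, Cxcr4 and Ccr6 also held NFAT matches. Those of Ccr6 held TCF/LEF matches too, so neither motif was confined to Ccr4 and Cxcr6. An AP-1 match is present in 7.8% of the 32851 RefSeq promoters in the reference, an NFAT match in 61.3%, a TCF/LEF match in 16.0% and a GATA match in 11.2%. Such matches are letters in a window, and binding was not measured.

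Total counts ran from 12738059 to 19081219 per library, so that 1 read was worth 0.0520 to 0.0754 CPM. CPM are counts per 1e6 of an adjusted library size. That size is the library's count over all tested genes times a scaling factor from trimmed means of M values. The factor was lowest in DMSO library b, at 0.832. Ribosomal 18S RNA (Rn18s) made up 17.6% of the counts in DMSO library b and 3.97% in urolithin A library a, against at most 0.887% elsewhere. The libraries carried T cell transcripts. All 10 T cell markers were detected, with a summed level of 2498 to 2635 CPM under DMSO and 2545 to 2758 CPM under urolithin A. Of these markers Cd247 and Cd4 rose, Lck fell and the other 7 did not pass. Cd4 was at 250 ± 9.83 CPM (SD, n = 3) under DMSO and 299 ± 12.5 CPM under urolithin A, and Cd8a at 116 ± 1.75 and 130 ± 1.04 CPM. The rise of Cd4 did not pass in fits that dropped DMSO library b (adjusted p = 0.0660, limma) or c (0.0551) or both libraries rich in Rn18s (0.0920), or with scaling to the total count (0.0527). T cell markers thus far exceeded those of any other cell type examined, while B cell transcripts were also present and are given with Cxcr5.

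Under urolithin A the transcripts of Ccr4 and Cxcr6 fell, to 0.666-fold and 0.834-fold of the DMSO level, and those of Cxcr5 and Ccr8 rose, 1.77-fold and 1.30-fold (3 libraries per group). Ccr6 also passed the test in the upward direction but was too low to judge. Ccr2, Ccr9, Cxcr3 and Cxcr4 did not pass. Each change is a limma voom estimate with p-values adjusted over all 14444 genes tested, and a gene was called at an adjusted p under 0.05. In all, 5 of the 9 receptors (55.6%) were called, 3 higher, Ccr6 included, and 2 lower. Over all genes tested 33.7% were called, 17.7% higher and 16.0% lower. The groups did not overlap for the same number of receptors, 5 of 9, against 46.8% of all genes tested. Ccr6 entered the test through its urolithin A libraries alone, so it adds no weight to either count. With Ccr6 set aside, Cxcr5 and Ccr8 (higher) and Ccr4 and Cxcr6 (lower) were both called and without overlap. When both libraries with the most Rn18s were left out, only Cxcr5 (limma adjusted p = 0.0202) and Ccr4 (0.00541) passed. With 9 receptors that moved both ways, no change of the receptors as a set is read from these shares. In RNA from whole cultures, fewer cells that carry a receptor and less of its RNA per cell cannot be told apart.

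**Figure D1:**
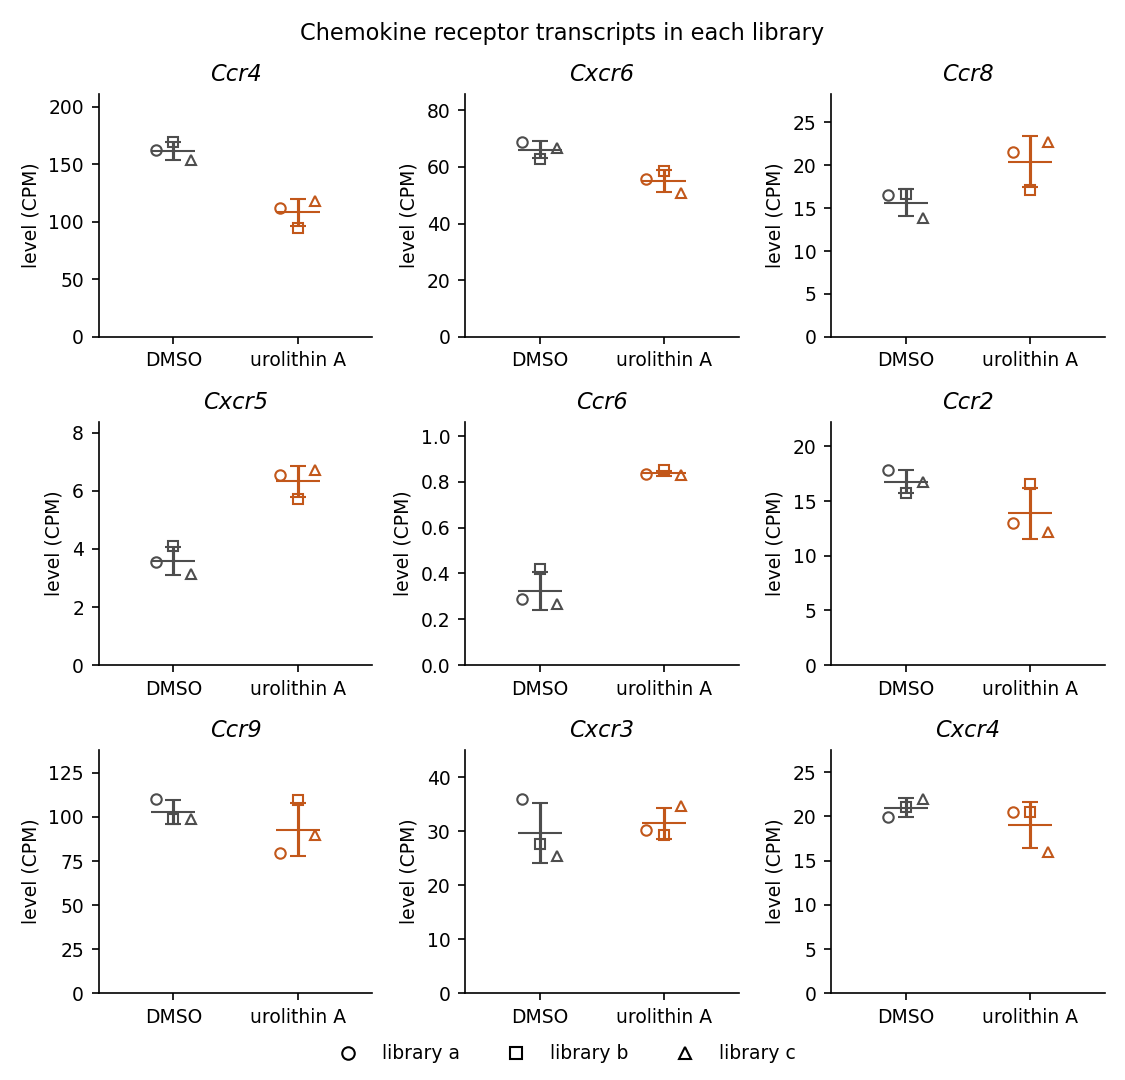
Level of each receptor transcript in CPM in the 3 DMSO and 3 urolithin A libraries. Symbols are the libraries a, b and c, horizontal lines the means and bars the SD, and each panel starts at 0. The groups are apart for Ccr4, Cxcr6, Ccr8, Cxcr5 and Ccr6 and overlap for the other 4.

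The type 2 receptors moved in opposite directions. Ccr4, the receptor for Ccl17 and Ccl22, had the highest mean CPM of the 9 transcripts in either group, although Ccr9 exceeded it in urolithin A library b. In the order of the letters a to c it stood at 162, 169 and 154 CPM in the DMSO libraries and at 112, 94.9 and 118 CPM in the urolithin A libraries, the order used for all other receptors. Every urolithin A library lay below every DMSO library. Its level fell to 0.666-fold (95% interval 0.587 to 0.756), a log2 fold change of -0.59 ± 0.09 (SE, limma adjusted p = 1.10e-04). The call held in all 18 alternative settings, with log2 fold changes from -0.64 to -0.49.

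Ccr8, the receptor for Ccl1 and, in mice, Ccl8, was far less abundant in reads than Ccr4. Its level was 16.5, 16.6 and 13.8 CPM in the DMSO libraries and 21.5, 17.1 and 22.7 CPM in the urolithin A libraries. The groups were separated only narrowly, by urolithin A library b at 17.1 CPM against DMSO library b at 16.6 CPM. The rise was 1.30-fold (95% interval 1.08 to 1.57; limma adjusted p = 0.0325). With a library left out it passed in 1 of 6 cases, the one that drops urolithin A library b (limma log2 fold change 0.51, adjusted p = 3.55e-04). In the other 5 the log2 fold change was 0.28 to 0.42, with an adjusted p of 0.0614 to 0.153.

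The ratio of Ccr4 to Ccr8 counts within a library does not depend on any scaling. It was 9.85, 10.2 and 11.1 under DMSO and 5.20, 5.56 and 5.21 under urolithin A. The 2 groups were therefore far apart relative to their spread, with means of 10.4 ± 0.653 and 5.32 ± 0.206 (SD, n = 3). The exact 2-sided permutation p of 0.1 is the smallest that 3 libraries against 3 can give, and the pair was chosen after its values were seen. Gata3, the transcription factor of type 2 helper cells, was at 40.8 ± 2.70 CPM under DMSO and 44.4 ± 3.64 CPM under urolithin A (log2 fold change 0.12, 95% interval -0.08 to 0.31). Foxp3, which defines regulatory T cells, was low in both groups, at 2.38 ± 0.462 and 2.59 ± 0.134 CPM.

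Among the receptors of type 1 and effector cells, Cxcr6 fell and Cxcr3 did not pass. Cxcr6, the receptor for the transmembrane chemokine Cxcl16, was at 68.7, 63.0 and 66.5 CPM under DMSO and 55.7, 58.7 and 50.8 CPM under urolithin A. All urolithin A values lay below all DMSO values. Its fall to 0.834-fold (95% interval 0.740 to 0.941) had a limma adjusted p of 0.0224. The call was lost without DMSO library a or c and without urolithin A library a or c (adjusted p = 0.0504 to 0.0908), and with scaling to the total count (log2 fold change -0.17, adjusted p = 0.449). Fyco1, the opposite-strand gene that spans Cxcr6, had a log2 fold change of -0.26 ± 0.10, close to the -0.26 ± 0.08 of Cxcr6 (limma adjusted p of Fyco1 0.0702). The sources used here do not say how counting used strand, so reads of the pair may not be fully separate.

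Cxcr3, the receptor for the interferon-induced chemokines Cxcl9 and Cxcl10, was at 36.0, 27.6 and 25.5 CPM under DMSO and 30.3, 29.2 and 34.7 CPM under urolithin A. DMSO library a was the highest of the 6, and the groups overlapped. The log2 fold change of 0.09 had a 95% interval of -0.18 to 0.35 (limma adjusted p = 0.625). In this fit to all 6 libraries a rise of more than about 1.27-fold lies outside the interval. With a library left out the log2 fold change ran from -0.03 to 0.24 and passed in 0 of 6 fits. Tbx21, which encodes T-bet, the factor known to activate Cxcr3, rose from 93.9 ± 9.60 to 136 ± 21.6 CPM (limma log2 fold change 0.53 ± 0.11, adjusted p = 0.00291). Within a library the ratio of Cxcr3 to Ccr4 counts was 0.222, 0.163 and 0.166 under DMSO and 0.271, 0.308 and 0.294 under urolithin A. The ratios did not overlap (exact 2-sided permutation p = 0.1, the smallest possible), and this pair too was chosen after its values were seen. It shares Ccr4, which fell, with the ratio of Ccr4 to Ccr8. Of the other ratios computed, that of Cxcr5 to Ccr2 did not overlap between groups (exact permutation p = 0.1). That of Ccr9 to Cxcr6 did (exact permutation p = 0.5).

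Ccr2, the receptor for Ccl2 on monocytes and memory T cells, was at 17.8, 15.7 and 16.8 CPM under DMSO and 13.0, 16.6 and 12.1 CPM under urolithin A. Urolithin A library b lay among the DMSO values and the other two lay below them. The log2 fold change was -0.28 (95% interval -0.55 to -0.01) and did not pass after adjustment (limma adjusted p = 0.105). Without urolithin A library b it passed, at -0.41 (adjusted p = 0.00708). Chemokine receptor genes with close paralogs, Ccr2 among them, have uncertain counts wherever counting split reads between copies. The monocyte markers Lyz2 and Csf1r stayed under 1 CPM in both groups. The summed level of the 8 monocyte and macrophage markers in the table was 27.2 to 30.1 CPM under DMSO and 27.3 to 29.0 CPM under urolithin A. Of 3 tested in that list, Mpeg1 rose from 2.36 ± 0.0730 to 7.55 ± 0.690 CPM, and Ly6c2, which T cells also express, fell from 21.2 ± 0.894 to 14.4 ± 0.262 CPM. The part of these markers in the Ccr2 values was not tested.

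Ccr9, the receptor for Ccl25 in the gut and thymus, was at 110, 98.8 and 98.9 CPM under DMSO and 79.7, 109 and 89.5 CPM under urolithin A. As with Ccr2, urolithin A library b fell among the DMSO values while libraries a and c lay below them. The log2 fold change was -0.16 (95% interval -0.38 to 0.07; limma adjusted p = 0.268). It passed without that library, at -0.28 (adjusted p = 0.00365). Lztfl1, which overlaps the Ccr9 locus on the opposite strand, was at 71.2 ± 4.70 and 78.8 ± 16.7 CPM. Siglech, a marker of plasmacytoid dendritic cells, which also carry Ccr9, was at 0 CPM in the DMSO libraries and 0.0251 ± 0.0435 CPM under urolithin A.

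Cxcr5, the receptor for Cxcl13 that admits B cells and follicular helper T cells to follicles, showed the steepest rise of the receptors with adequate counts. It was at 3.54, 4.10 and 3.13 CPM under DMSO and 6.56, 5.73 and 6.71 CPM under urolithin A, from 59 to 126 reads per library. All urolithin A values exceeded all DMSO values. The rise was 1.77-fold (95% interval 1.38 to 2.29), a log2 fold change of 0.83 ± 0.17 (SE, limma adjusted p = 0.00185). It was called in all 18 alternatives, with log2 fold changes from 0.68 to 0.91. Bcl6, the factor of follicular helper cells, rose from 2.18 ± 0.645 to 3.97 ± 0.466 CPM (limma adjusted p = 0.0121), a call that was lost without DMSO library b (adjusted p = 0.0745) or both libraries rich in Rn18s (0.143).

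B cells carry Cxcr5 and Ccr6 as well, and B cell markers were higher in the same libraries. The summed level of the 10 B cell markers was 164 to 180 CPM under DMSO and 207 to 251 CPM under urolithin A. Of 7 tested, Ighm, Ms4a1 and Cd79b rose and none fell (42.9% called, against 33.7% of all genes tested). Ighm, the immunoglobulin mu chain, made up most of the sum, at 156 ± 9.32 and 213 ± 21.2 CPM. Ms4a1, which encodes CD20, was at 2.03 ± 0.398 and 3.54 ± 0.762 CPM. Their part in the rise of Cxcr5 was not tested. Bcl9l, which shares 110 bases with the Cxcr5 locus on the opposite strand, rose as well, from 5.37 ± 0.0805 to 8.04 ± 1.27 CPM (limma adjusted p = 0.0140).

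Ccr6, the receptor for Ccl20, was too low to judge. It had 5, 6 and 5 reads in the DMSO libraries and 16, 15 and 11 in the urolithin A libraries, or 0.324 ± 0.0816 and 0.837 ± 0.0114 CPM. It reached the minimum of 10 reads per library of median size in 0 DMSO libraries and 3 urolithin A libraries. A gene that enters the test through its higher group alone had to differ, so its fitted log2 fold change of 1.34 ± 0.38 (limma adjusted p = 0.0134) carries no weight. Under the stricter minimum of 50 reads it was not tested.

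Cxcr4, the receptor for Cxcl12 and for the cytokine Mif, did not pass. Its level was 19.9, 21.1 and 22.0 CPM under DMSO and 20.5, 20.5 and 16.0 CPM under urolithin A. Urolithin A library c was the low one, and the other two lay within the DMSO range. The log2 fold change of -0.14 had a 95% interval of -0.38 to 0.10 (limma adjusted p = 0.371), and none of the 18 alternatives called it.

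**Figure D2:**
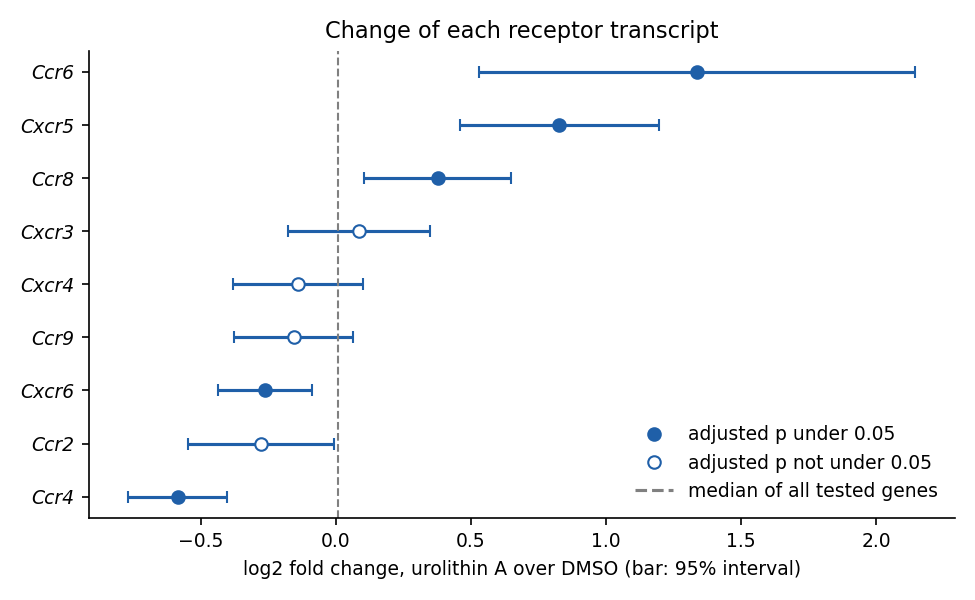
Log2 fold change of each receptor transcript, urolithin A over DMSO, with its 95% interval from limma. Filled points passed an adjusted p of 0.05, and the dashed line is the median of all 14444 genes tested, 0.01. The intervals of Cxcr5 and Ccr4 lie farthest from that line relative to their width.

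Levels between receptors are compared per length of transcript. Under DMSO, Ccr4 led at 52.3 ± 2.50 CPM per kb of annotated exon (SD, n = 3), followed by Cxcr6 at 34.2 ± 1.51 and Cxcr3 at 17.2 ± 3.23. Ccr8 at 13.3 ± 1.33 and Cxcr4 at 11.6 ± 0.586 CPM per kb overlapped in their libraries, and Ccr9 followed at 10.0 ± 0.652. Ccr2 at 2.48 ± 0.155, Cxcr5 at 1.08 ± 0.147 and Ccr6 at 0.140 ± 0.0352 CPM per kb closed the order.

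Under urolithin A the order of the means per length of annotated exon was the same, but the spacing was not. Ccr4 at 35.0 ± 3.88 CPM per kb came nearer to Cxcr6 at 28.5 ± 2.08, without overlap. Ccr8 at 17.4 ± 2.52 overlapped Cxcr3 at 18.2 ± 1.68, Ccr9 at 9.05 ± 1.47 overlapped Cxcr4 at 10.5 ± 1.44, and Cxcr5 at 1.90 ± 0.159 overlapped Ccr2 at 2.05 ± 0.348. Summed over the 9 receptors, the level per length was 142 ± 6.25 CPM per kb under DMSO and 123 ± 3.43 under urolithin A. Ccr4 made up 36.8% ± 1.55 of that sum under DMSO and 28.4% ± 2.39 under urolithin A, Ccr8 9.35% ± 0.641 and 14.1% ± 1.68. The annotated length matters for Ccr9: with the longest transcript as length it stood at 19.8 CPM per kb under DMSO, above Cxcr3 at 17.2, and at 17.9 under urolithin A, below Cxcr3 at 18.2, so that the order of these means then differed between the groups.

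**Figure D3:**
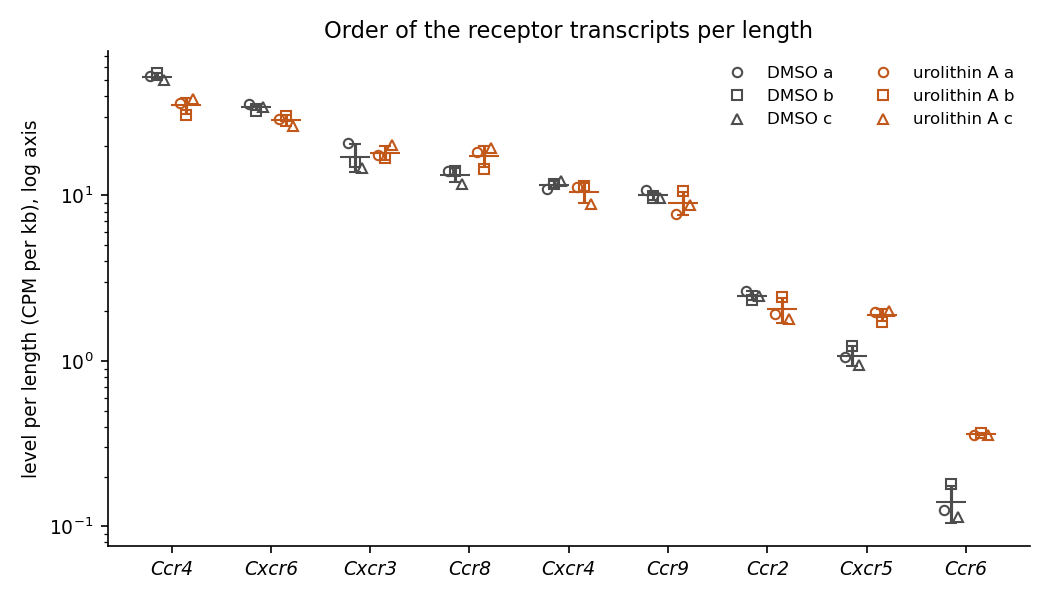
Level per length (CPM per kb of exon, log axis) of each receptor transcript, ordered by the DMSO mean. Symbols are the libraries a to c, lines the means and bars the SD, under DMSO on the left and urolithin A on the right of each pair. Ccr4 is highest and Ccr6 lowest in both groups.

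The chemokine receptor genes of the chromosome 9 cluster did not share 1 size of change. In the table's order, Ccr9 had a log2 fold change of -0.16, Cxcr6 -0.26, Xcr1 -0.76, Ccr1 0.41 and Ccr2 -0.28, while Ccr3 was too low to test. Of these, Cxcr6 passed. Xcr1, the receptor for Xcl1, had an adjusted p of 0.0527.

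Other chemokine and homing receptors changed both ways. Of the 17 that were listed, 11 were tested, and of these 4 rose and 2 fell, with a median log2 fold change of 0.29 against 0.01 for all genes tested. The share called was 54.5%, against 33.7% of all genes tested, and no list was tested as a set. Ccr7, the receptor that brings naive and central memory cells into lymph nodes, rose from 268 ± 17.7 to 553 ± 23.7 CPM. P2ry10, a receptor for lysophospholipids, rose from 274 ± 24.7 to 428 ± 44.8 CPM (log2 fold change 0.64 ± 0.09). S1pr1, which draws T cells out of lymphoid organs, and Ptger4, a prostaglandin E2 receptor, were the other two that rose, with log2 fold changes of 1.29 and 0.29. Among those that fell was S1pr4, a sphingosine phosphate receptor, from 121 ± 15.2 to 99.0 ± 3.13 CPM. S1pr4 did not pass without DMSO library a (adjusted p = 0.127) or urolithin A library a (0.0856), without both libraries rich in Rn18s (0.114), or when scaled to the total count (0.383).

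Most ligands of the 9 receptors were scarce or not in the table, while Mif was abundant. Of 16 fixed ligand genes 7 were in the table and 5 were tested, of which 2 rose and 1 fell (median log2 fold change 0.46). That is 60.0% called, against 33.7% of all genes tested, from only 5 genes. Ccl22, a ligand of Ccr4, had 31, 49 and 43 reads under DMSO and 128, 145 and 107 under urolithin A. Its level rose from 2.50 ± 0.826 to 7.65 ± 0.857 CPM while that of its receptor fell (limma log2 fold change 1.66 ± 0.22, adjusted p = 4.14e-05). Cxcl10, a ligand of Cxcr3, had 10, 10 and 12 reads under DMSO and 30, 35 and 26 under urolithin A. It rose from 0.637 ± 0.0577 to 1.83 ± 0.237 CPM. Cxcl9, another, had 0 reads in each DMSO library and 16, 7 and 10 in the urolithin A libraries, and was not tested. Mif fell from 232 ± 3.77 to 179 ± 7.77 CPM (limma adjusted p = 6.41e-04), a call lost with scaling to the total count.

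Genes that transmit or end the receptor signal moved in both directions. Of 23 in the list 21 were tested, of which 5 rose and 6 fell, and the median log2 fold change was -0.03. Thus 52.4% were called, against 33.7% of all genes tested. Among those that fell were both beta-arrestins, which desensitise and internalise the receptors: Arrb1 from 257 ± 5.87 to 140 ± 28.0 CPM (log2 fold change -0.89 ± 0.11) and Arrb2 from 110 ± 4.48 to 77.1 ± 2.65 CPM. Pik3cg, the catalytic subunit of PI3 kinase gamma, had a log2 fold change of -0.43 and its adaptor Pik3r5 one of 0.33. Both passed. Rgs2, which shortens G protein signals, rose from 9.08 ± 1.26 to 16.8 ± 0.891 CPM, and Ptk2b, the kinase PYK2, from 169 ± 4.34 to 239 ± 7.56 CPM. The main Gi subunit gene Gnai2 was at 392 ± 19.2 and 380 ± 25.1 CPM (limma adjusted p = 0.676).

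In the migration machinery 12 of 33 tested genes rose and 3 fell, with a median log2 fold change of 0.10. Called genes made up 45.5%, against 33.7% of all genes tested. Fyb, the integrin-activating adaptor ADAP, rose from 51.9 ± 2.80 to 94.4 ± 13.2 CPM, and Dock8, a Cdc42 activator, from 166 ± 9.21 to 230 ± 10.5 CPM. Vasp, an actin elongation factor, fell from 355 ± 16.5 to 282 ± 16.8 CPM, and Itgb7, the integrin chain of gut-homing cells, from 463 ± 45.1 to 392 ± 10.9 CPM. Neither fall passed with scaling to the total count (adjusted p = 0.208 and 0.498), and that of Itgb7 was also lost without DMSO library a (0.136), urolithin A library a (0.0617) or both libraries rich in Rn18s (0.118).

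Of the lineage transcription factors 9 of 19 tested rose and 4 fell, with a median log2 fold change of 0.20. Called factors made up 68.4%, against 33.7% of all genes tested, and the list was not tested as a set. Besides Tbx21 and Bcl6, Foxo1, which sustains naive and homing genes, rose from 38.4 ± 1.36 to 53.6 ± 2.94 CPM, and Hif1a from 1447 ± 43.5 to 1827 ± 107 CPM. Prdm1, which encodes the effector cell repressor BLIMP-1, fell from 77.8 ± 2.01 to 41.9 ± 3.79 CPM (limma log2 fold change -0.89 ± 0.08, adjusted p = 1.76e-06), and Batf from 65.4 ± 2.75 to 49.7 ± 4.36 CPM. Batf did not pass with scaling to the total count (adjusted p = 0.121).

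Markers of further cell types were low. Summed levels were 5.63 to 6.58 CPM under DMSO and 6.03 to 8.43 CPM under urolithin A for the 6 dendritic cell markers in the table, of which 2 were tested and 1, Zbtb46, rose. For erythroid and platelet markers they were 4.18 to 5.52 and 5.99 to 6.56 CPM, and 1 of 4 tested, Hbb-bs, rose. The 4 granulocyte markers stayed at or below 0.318 CPM in sum, too low to test. NK cell markers summed to 54.1 to 67.7 and 32.4 to 49.5 CPM, nearly all of it Gzma, which activated T cells also express and which was the 1 of 3 tested that fell. Stromal and endothelial markers summed to 74.3 to 74.8 and 104 to 131 CPM, nearly all of it Pecam1, which T cells also express and which was the 1 of 3 tested that rose. S100a9 and Cd209a had no read in any library.

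The genes whose profile over the 6 libraries lay nearest to that of Ccr4 were Mybl2, E2f4 and Eif3g. Likeness was the root mean square difference of centred log2 CPM, and it was 0.0116, 0.0269 and 0.0289 for these among 9528 protein-coding candidates. Mybl2 was at 55.5 ± 2.97 CPM under DMSO and 37.0 ± 4.25 CPM under urolithin A. These genes were picked for their nearness over only 6 libraries, and shared regulation with Ccr4 was not tested. For Ccr6 the nearest were Fndc10, Cd101 and Afg1l, at 0.105, 0.109 and 0.109. These rest on the few reads of Ccr6, which entered the test through its higher group alone, so the likeness carries no weight.

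**Figure D4:**
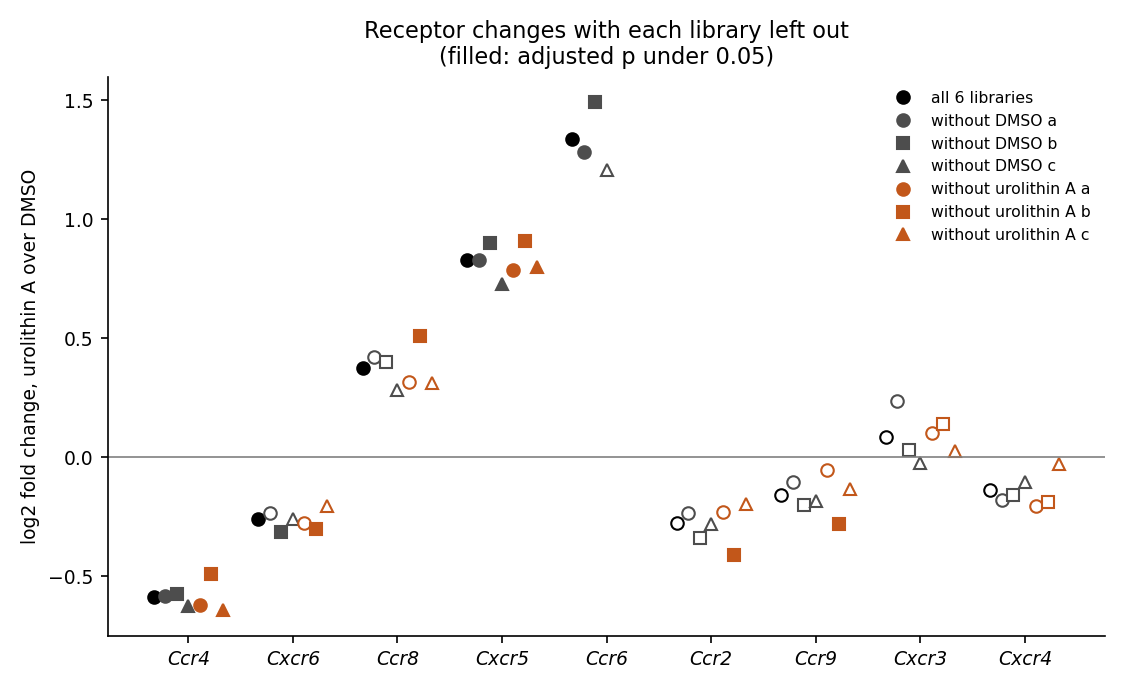
Log2 fold change of each receptor transcript with all 6 libraries and with each library left out in turn, where filled symbols passed an adjusted p of 0.05. Ccr4 and Cxcr5 stayed past the threshold in all 6 such fits. Ccr8 passed in 1 of the 6 and Cxcr6 in 2 of the 6, and Ccr6 entered 3 of them.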

How the data were processed

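RNA of 3 DMSO and 3 urolithin A libraries was measured with a stranded, mRNA-focused Illumina kit, per the labels' protocols. Per the submitters' processing notes, bcl2fastq 2.20.0.422, FastQC, STAR 2.5.2a and DESeq2 were used with build mm10. The counting program and annotation: not given in the sources used here. Of 2 identical deposited files 1 was used. The authors deposited whole numbers with a decimal comma, treated here as read counts per gene, and 3 per-library columns matching no labelled sample were left out. A gene was kept at 15 reads in all and 10, for median library size, in 3 or more libraries. Counts were scaled by trimmed means of M values (30% of M and 5% of A trimmed) and fitted with voom, lmFit and robust eBayes in limma 3.58.1 (R 4.3.3), on group alone. Adjustment was by Benjamini-Hochberg over all genes tested. Levels per length used GENCODE M21 exon unions. edgeR was not used, because the decimal comma kept the unit from being recorded as counts. The procedure was tested on simulated data. Letters were not treated as pairs in the main fit. Same-letter deviations from the group means correlated at 0.09, -0.19 and -0.10, and different-letter ones at -0.25 to 0.31. With 3 libraries per group these values cannot settle whether the letters pair the libraries. Between libraries of a group, chi-square per degree of freedom was 8.04 to 24.8, where counting error alone gives 1, so no 2 were copies. The receptors, gene lists and settings were chosen with earlier results of these data known. Named genes were the 9 receptors, a fixed context set, and from each list the 2 called genes with the smallest p in each direction at a mean of at least 5 CPM in the higher group. Other named genes (those overlapping or neighbouring receptors, markers, and further list genes) were chosen after their values were seen. Some genes of the lists and of the fixed context set are not reported here.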

Additional observations from a re-analysis of the deposited data

How the results depend on the processing

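The calls of Ccr4 and Cxcr5 held in all 18 alternatives, and those of Ccr8 and Cxcr6 in 12 of 18 each. Ccr6 was tested in 13 and called in 12. It entered the main test through its higher group alone, so these calls carry no weight. No receptor called in the main setting changed direction. With scaling to the total count 3169 genes were called in place of 4871, of which 70.6% were higher against 52.6%. The receptors called lower were then 1 in place of 2, ligands lower 0, other chemokine and homing receptors lower 1, signalling genes lower 2 and migration genes lower 0. The stricter minimum left 1 ligand higher. Sample quality weights gave 4 receptors lower, with Ccr2 and Ccr9 added. Without both libraries rich in ribosomal RNA, DMSO b and urolithin A a, 2522 genes were called. Then 1 receptor was higher (Cxcr5) and 1 lower (Ccr4), and the lists gave 1 homing receptor lower, 3 signalling genes higher, 6 migration genes higher and 1 lower, and 5 lineage factors higher. With 1 library left out in turn, 3485 to 5140 genes, 1 to 2 receptors higher and 1 to 4 lower were called, with 1 to 2 homing receptors lower and 3 to 6 signalling genes lower. The replicate block, letters a to c as a term, called 4496 genes, 3 receptors higher and 2 lower. Causes of these shifts were not tested. Depth limits Ccr6, at 5 to 16 reads.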
